A study of Saccharomyces cerevisiae with 161 samples.

Results

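The long gaps are the stretches of at least 8000 bp that lay between the end of one Red1 peak and the start of the next on the same chromosome of wild-type yeast in meiosis. They were read from the broad peak list of Red1, and 310 of the 1555 gaps between neighbouring Red1 peaks (19.9%) reached this length. The other 1245 gaps are called shorter gaps. The long gaps were selected on the measured ends of the Red1 peaks, so their number, their lengths and their lack of Red1 are a description, and nothing is tested with them. The study followed proteins of the meiotic chromosome axis in SK1, a laboratory background of Saccharomyces cerevisiae that enters meiosis in a synchronous way. Chromatin immunoprecipitation with sequencing (ChIP-seq) recovers DNA bound by a protein, and here all cells were wild type and were collected 3 h after the start of meiosis. According to the labels, Red1 and Hop1 were each precipitated from 4 samples, and Rec8, with an anti-HA antibody, from 2. Of these, 1 Red1 and 1 Hop1 sample came from cells in which Smc4 was tagged with Pk9, and both were set against the same input DNA.

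The meiotic axis is the protein core to which each chromosome is tied as a row of loops. Rec8 is the meiotic subunit of cohesin, the ring complex that holds sister chromatids together and sits at the loop bases. Red1 is a structural axis protein that Rec8 recruits to many of its sites, and Hop1 is the HORMA-domain partner of Red1 that promotes double-strand break formation and steers repair to the homolog. A gap between Red1 peaks is thus a stretch with no called axis site for Red1, and the lists of the other axis proteins show where a site of Rec8 or Hop1 was called in the same stretch.

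The authors combined the replicates of a protein before calling its peaks with MACS, which gave 1571 Red1 peaks, 1514 Hop1 peaks and 1592 Rec8 peaks on 16 chromosomes. There is therefore 1 list per protein, no value has a replicate error, and the read depth behind the lists is unknown. Differences between long and shorter gaps are for this reason described and not tested. Fewer samples stand behind the Rec8 list than behind the other lists. Each peak carries its fold enrichment, which is the ChIP signal over the input signal averaged across the peak, and a −log10 q-value, which is larger where the peak stands out more from the background. Shares of gaps are given with exact (Clopper-Pearson) 95% intervals. These intervals cover counting error only, since gaps of the same chromosomes are not replicates of a condition. Positions follow the SK1 coordinates that the lists use, counted from 1, and genes, centromeres and repeats were not used here. Chromosome spans were taken from the first to the last base in any of the lists, and they added up to 11.7 Mb.

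The long gaps held a large part of the genome in a small part of the gaps. They added up to 3.67 Mb, which was 31.5% of the chromosome spans and 45.9% of all sequence between Red1 peaks. The shorter gaps added up to 4.34 Mb, or 37.2% of the spans. The median length was 10648 bp in long gaps (quartiles 9102 and 13322 bp) and 3022 bp in shorter gaps (quartiles 1644 and 5114 bp). Lengths ran without a break across the threshold. The long gaps nearest to it were chromosome XIII from 677048 to 685065 (8018 bp), chromosome XVI from 413336 to 421375 (8040 bp) and chromosome IV from 972777 to 980817 (8041 bp). The shorter gaps nearest to it were chromosome XI from 391401 to 399393 (7993 bp), chromosome XV from 293607 to 301592 (7986 bp) and chromosome IX from 290876 to 298861 (7986 bp). Most long gaps were only moderately longer than the threshold. Of the 310, 185 reached 10000 bp, 39 reached 16000 bp and 13 reached 20000 bp. The list of 2385 Red1 summits placed 0 summits inside a long gap. It was made from the same Red1 data, so this is no independent evidence.

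**Figure D1:**
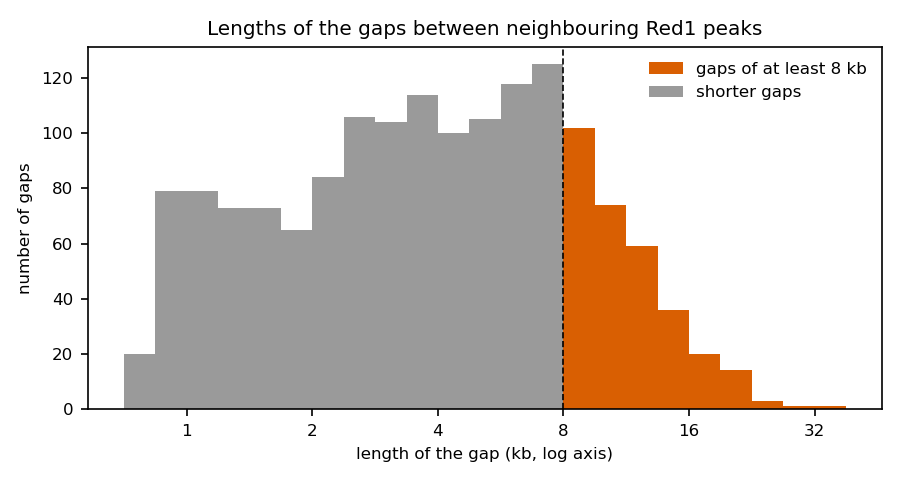
Number of gaps between neighbouring Red1 peaks by length (kb, log axis), with long gaps in orange, shorter gaps in grey and the 8 kb threshold as a dashed line. The 310 long gaps formed the falling upper side of a single distribution and reached 36974 bp.

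The longest gap lay on chromosome XII from 338640 to 375613 and measured 36974 bp. It was not free of the other axis proteins. A Rec8 peak of 1606 bp with 1.21-fold enrichment stood at 342727, and a second of 1036 bp with 1.54-fold enrichment stood at 367989. The only Hop1 peak inside, 417 bp wide and 1.45-fold enriched, overlapped the second Rec8 peak. Between the pair of Rec8 peaks, 23656 bp held neither protein. Its left border was a weak Red1 peak with 1.20-fold enrichment, and the Red1 peak on its right reached 2.20-fold.

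The next in length were on chromosome V from 294830 to 325441 (30612 bp), on chromosome XV from 135170 to 160296 (25127 bp) and on chromosome XIV from 264356 to 289405 (25050 bp). The gap on V held 3 Rec8 peaks with 1.22-fold, 1.27-fold and 1.32-fold enrichment, and its only Hop1 peak (1.20-fold) overlapped the strongest of them. The gap on XIV held 3 Rec8 peaks, each between 303 and 329 bp wide, and both of its Hop1 peaks fell on a Rec8 peak. The gap on XV had no base under a Rec8 peak, and Hop1 entered it for only 18 bp on the left and 200 bp on the right. The gaps on XIV and XV thus differed in content although they were of nearly the same length.

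The remaining 6 of the 10 longest gaps ran from 20731 to 22858 bp. Chromosome XVI from 91409 to 114266 held a single Rec8 peak of 273 bp with 1.22-fold enrichment. Chromosome XIV from 598671 to 619936 held a single Rec8 peak of 337 bp with 1.37-fold enrichment. Neither had a Hop1 peak inside. Chromosome III from 172827 to 194867, chromosome VIII from 423754 to 445106 and chromosome XIII from 441108 to 461853 had no peak of either protein inside, although peaks of the flanking sites reached a short way in. Chromosome V from 155274 to 176004 was the exception, with 14251 of its 20731 bp under Rec8 peaks.

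**Figure D2:**
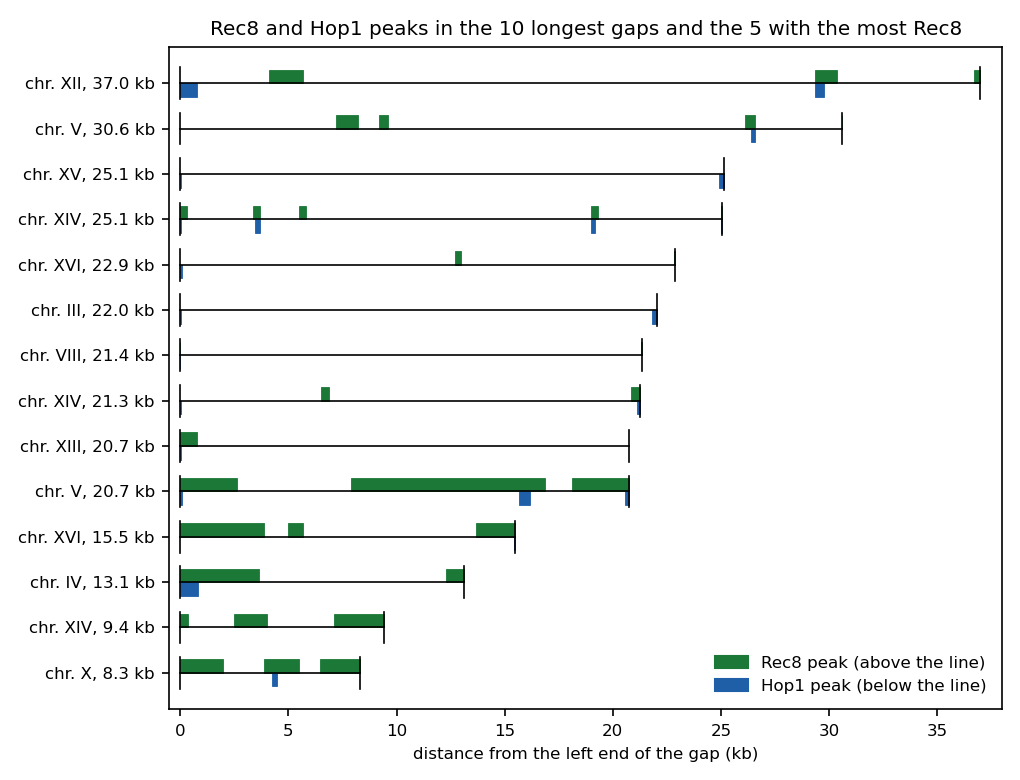
Rec8 peaks (green, above the line) and Hop1 peaks (blue, below the line) along the 10 longest gaps and the 5 gaps with the most sequence under Rec8, drawn to scale from the left end of each gap (kb). Gap V of 20731 bp belongs to both sets, so 14 gaps are drawn, and Rec8 filled large parts of the lower 5 and only short pieces of most others.

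Rec8, which marks cohesin, was found as a whole peak inside a larger share of the long gaps than of the shorter gaps in these lists. A Rec8 peak lay entirely inside 59 of 310 long gaps (19.0%, interval 14.8 to 23.9%) and inside 33 of 1245 shorter gaps (2.65%, interval 1.83 to 3.70%). There were 80 such peaks in the long gaps and 34 in the shorter gaps. Per 100 kb of gap sequence this was 2.18 peaks in long gaps and 0.784 in shorter gaps. A short gap has little room for a whole peak, and the share was higher in each longer class of gaps. It was 51.3% in gaps of 16000 bp and over (20 of 39), 26.0% in gaps of 12000 to under 16000 bp (20 of 77) and 9.79% in gaps of 8000 to under 12000 bp (19 of 194), against 5.80% in gaps of 4000 to under 8000 bp (26 of 448). No gap under 2000 bp held a whole Rec8 peak. Of the 310 long gaps, 251 held no whole Rec8 peak, 43 held 1, 11 held 2 and 5 held 3.

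Hop1, the partner of Red1, was inside 38 long gaps, against 59 for Rec8. A whole Hop1 peak lay in 38 of 310 long gaps (12.3%, interval 8.82 to 16.4%) and in 27 of 1245 shorter gaps (2.17%, interval 1.43 to 3.14%). The long gaps held 41 Hop1 peaks, or 1.12 per 100 kb, and the shorter gaps held 27, or 0.623 per 100 kb. Of the long gaps, 272 held no whole Hop1 peak, 35 held 1 and 3 held 2. Hop1 peaks were inside 10 of 39 gaps of 16000 bp and over (25.6%), 8 of 77 gaps of 12000 to under 16000 bp (10.4%) and 20 of 194 gaps of 8000 to under 12000 bp (10.3%). In gaps of 4000 to under 8000 bp the count was 21 of 448 (4.69%). Per 100 kb, that class held 0.797 peaks and gaps of 12000 to under 16000 bp held 0.861. No gap under 2000 bp held a whole Hop1 peak, since a short gap has little room for one.

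Most long gaps held neither protein as a whole peak. This was so for 233 of 310 long gaps (75.2%) and 1189 of 1245 shorter gaps (95.5%). Both proteins had a peak inside 20 long gaps and 4 shorter gaps. Rec8 alone was inside 39 long gaps and 29 shorter gaps, and Hop1 alone was inside 18 long gaps and 23 shorter gaps. Few long gaps were empty to the last base, since peaks of the flanking sites reached in. Only 15 long gaps (4.84%) had no base at all under either protein, against 243 shorter gaps (19.5%).

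The peaks inside long gaps were narrow and weak compared with the peaks at Red1 sites. For either protein the difference in width depends in part on the rule. An inside peak must lie wholly between Red1 peaks, and a wide peak more readily shares sequence with one. The 80 Rec8 peaks inside long gaps had a median width of 475 bp, a median enrichment of 1.31-fold and a median −log10 q-value of 5.85. The 1452 Rec8 peaks that shared sequence with a Red1 peak had medians of 1729 bp, 1.68-fold and 24.9. Of the 80, 33 (41.3%) had a −log10 q-value under 5, and only 6 reached 1.63-fold, the median of the whole Rec8 list. The 34 Rec8 peaks inside shorter gaps had medians of 420 bp, 1.24-fold and 3.57, and 21 of them were under 5. Weak Rec8 peaks were thus found in gaps of either class.

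Hop1 peaks inside long gaps were likewise weak relative to their own list. The 41 peaks had a median width of 441 bp and a median enrichment of 1.18-fold, with a highest value of 1.45-fold. The 1441 Hop1 peaks that shared sequence with a Red1 peak had medians of 1760 bp and 1.61-fold. None of the 41 reached 1.58-fold, the median of the whole Hop1 list, and 13 of them had a −log10 q-value under 5. The 27 Hop1 peaks inside shorter gaps had medians of 506 bp and 1.17-fold.

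**Figure D3:**
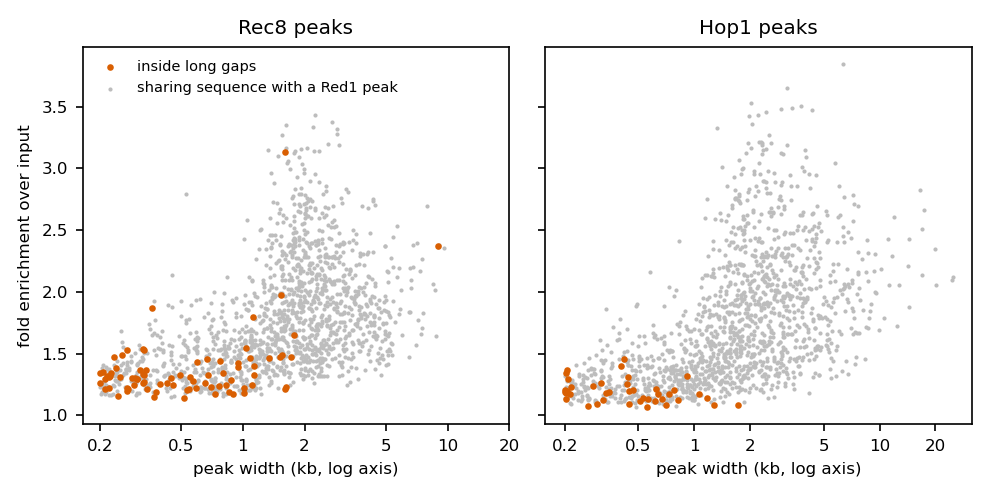
Width (kb, log axis) and fold enrichment over input of Rec8 peaks (left) and Hop1 peaks (right), with peaks inside long gaps in orange and peaks sharing sequence with a Red1 peak in grey. The orange points gathered at low width and low enrichment (medians 475 bp and 1.31-fold for Rec8, 441 bp and 1.18-fold for Hop1), apart from a few Rec8 peaks.

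A few Rec8 peaks inside long gaps were as strong as those at Red1 sites. The highest stood on chromosome X from 446815 to 448425, 1611 bp wide and 3.13-fold enriched, in the gap from 442948 to 451278. The second was the widest of all 80, 8987 bp at 2.37-fold, on chromosome V from 163166 to 172152. The next were a 1.97-fold peak on chromosome XIV from 640196 to 641724, a 1.87-fold peak on chromosome XV from 363748 to 364106 and a 1.79-fold peak on chromosome III from 112648 to 113767. Hop1 was weak at the first 2 of these sites. The Hop1 peak within the chromosome X site was 203 bp wide and 1.34-fold enriched, and the one within the wide chromosome V peak was 529 bp wide and 1.14-fold enriched. The sites on XIV, XV and III had no Hop1 peak inside their gaps.

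The 5 highest Hop1 peaks spanned a narrower range. The highest, 1.45-fold, stood on chromosome XII from 368013 to 368429, and the next, 1.40-fold, on chromosome XI from 314014 to 314417. A 1.37-fold peak stood on chromosome XIV from 283348 to 283554, a 1.34-fold peak on chromosome X from 447201 to 447403 and a 1.32-fold peak on chromosome XIII from 756517 to 757435. All but the one on chromosome XIII shared sequence with a Rec8 peak.

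About equal parts of the Hop1 peaks inside long gaps had and lacked Rec8. Rec8 overlapped 20 of the 41 Hop1 peaks, which had a median enrichment of 1.19-fold, and the other 21 had 1.17-fold. Hop1 overlapped 21 of the 80 Rec8 peaks. These had a median width of 669 bp and a median enrichment of 1.40-fold, and the 59 without Hop1 had 426 bp and 1.28-fold. Overlap shares were not computed for all peaks of either list or for peaks inside shorter gaps. The counts are therefore not shown to be particular to long gaps. How far the inside peaks lay from Red1 depends in part on the rule, since only whole peaks in gaps of at least 8000 bp were counted. The distance to the nearest Red1 peak ran from 786 to 9862 bp for Rec8 (median 3572 bp) and from 761 to 7184 bp for Hop1 (median 2881 bp). Either protein had such peaks on 13 of 16 chromosomes.

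Measured over whole gaps as pooled sequence under peaks, a smaller share of long than of shorter gap sequence lay under either protein. This order did not hold at every distance from Red1, as given below. Sequence near a Red1 border makes up a smaller part of a long gap than of a shorter gap. Rec8 peaks covered 4.34% of long gap sequence and 6.75% of shorter gap sequence. Hop1 peaks covered 2.29% of long gap sequence and 5.97% of shorter gap sequence. For Rec8 the order depended on which gaps were set side by side. Rec8 covered 6.30% of gaps of 16000 bp and over, 5.10% of gaps of 12000 to under 16000 bp and 3.10% of gaps of 8000 to under 12000 bp, against 4.97% of gaps of 4000 to under 8000 bp and 14.5% of gaps of 1000 to under 2000 bp. Against gaps of 4000 to under 8000 bp alone, the difference for all long gaps was −0.630 percentage points for Rec8 and −0.919 for Hop1, compared with −2.41 and −3.68 against all shorter gaps. Per gap, the median Rec8 coverage was 1.01% in long and 0.125% in shorter gaps, and the median Hop1 coverage was 0.725% in long and 1.24% in shorter gaps. Across the whole spans, Rec8 peaks covered 25.2% and Hop1 peaks 29.1%. Most of the coverage in long gaps came from peaks that straddled a border with Red1. Such peaks gave 62.9% of the 159460 bp under Rec8 and 74.8% of the 84115 bp under Hop1. Without the outer 1000 bp on either side of each gap, Rec8 covered 2.57% of long and 2.20% of shorter gap sequence, the reverse of the order over whole gaps. This reversal rested on 1 gap, since without the chromosome V gap from 155274 to 176004 Rec8 covered 2.18% of the trimmed long gaps. For Hop1 the trimmed values were 0.826% in long and 0.967% in shorter gaps.

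Peaks of both proteins crossed a larger share of the borders of long gaps than of shorter gaps, mostly by short distances. Rec8 peaks crossed 294 of 620 long gap borders (47.4%) and 881 of 2490 shorter gap borders (35.4%). Where they crossed, they reached in by a median of 147 bp in long gaps and 138 bp in shorter gaps. Hop1 peaks crossed 343 of 620 long gap borders (55.3%) and 1100 of 2490 shorter gap borders (44.2%), with a median reach of 61 bp in long gaps and 88 bp in shorter gaps. A reach of over 1000 bp was seen for Rec8 at 22 long (3.55%) and 116 shorter gap borders (4.66%). For Hop1 it was seen at 8 long (1.29%) and 76 shorter gap borders (3.05%). A peak that bridged a whole gap was counted at both of its borders, with the length of the gap as its reach.

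Coverage was also compared at equal distance from the nearest Red1 peak. In the first 250 bp, Rec8 covered 27.3% of long gap sequence and 20.2% of shorter gap sequence. From 1000 to 2000 bp it covered 3.28% in long and 2.41% in shorter gaps, and from 2000 to 4000 bp it covered 1.83% in long and 1.90% in shorter gaps. Coverage by Rec8 was thus far lower away from Red1 in gaps of either class. Hop1 covered 22.4% of long and 22.2% of shorter gap sequence in the first 250 bp, and 0.769% of long and 0.369% of shorter gap sequence from 2000 to 4000 bp.

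Past 4000 bp, where no gap of the shorter class reaches, Rec8 peaks were present beyond 8000 bp and Hop1 peaks were not. Rec8 covered 2.48% of long gap sequence from 4000 to 8000 bp and 6.56% beyond 8000 bp. Hop1 covered 0.606% from 4000 to 8000 bp and 0 bases beyond 8000 bp. The Rec8 value beyond 8000 bp came from 39 gaps, of which 9 had any Rec8 there. Without the chromosome V gap from 155274 to 176004 it was 3.34%.

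**Figure D4:**
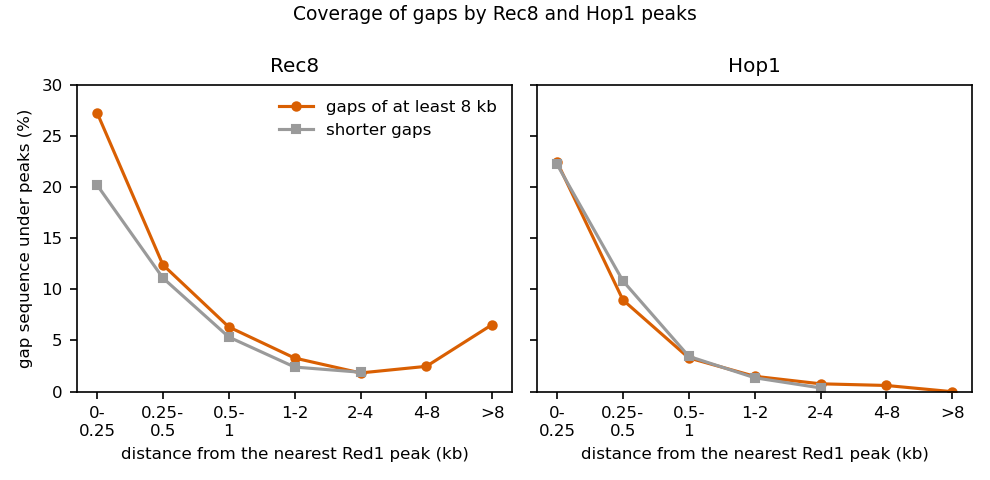
Share of gap sequence under Rec8 peaks (left) and Hop1 peaks (right) by distance from the nearest Red1 peak (kb), for long gaps (orange circles) and shorter gaps (grey squares). In long gaps Rec8 stood at 1.83% from 2 to 4 kb and at 6.56% beyond 8 kb, where Hop1 was at 0.

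Rec8 coverage was uneven between long gaps. The 10 most covered gaps held 32.4% of all Rec8 sequence in long gaps, 2 gaps were covered over more than 50% of their length, and 87 had no Rec8 at all. The gap with the most Rec8 was that on chromosome V from 155274 to 176004, where the 8987 bp peak and 2 peaks reaching in from the sides covered 14251 of 20731 bp. Next came chromosome XVI from 561106 to 576579 with 6321 bp, chromosome X from 442948 to 451278 with 5447 bp, chromosome IV from 1460858 to 1473955 with 4445 bp and chromosome XIV from 637703 to 647133 with 4213 bp. In the gap on IV, all of this came from the flanking peaks, with no whole Rec8 peak inside.

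Hop1 coverage was spread more thinly. Its 10 most covered gaps held 21.2% of all Hop1 sequence in long gaps, 0 gaps were covered over more than 50% of their length, and 48 had none. The 5 gaps with the most Hop1 were chromosome XVI from 195583 to 212289 (2480 bp), chromosome VIII from 62899 to 72082 (2444 bp), chromosome XI from 3906 to 12927 (1946 bp), chromosome III from 266836 to 277284 (1881 bp) and chromosome V from 227143 to 236457 (1823 bp). In those on XVI, VIII and V, all of the Hop1 belonged to peaks that reached in. The gap on XI stood near the chromosome end and held 3 Rec8 peaks of 698, 827 and 851 bp with a Hop1 peak of 345 bp.

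Long gaps usually kept a long stretch free of the other axis proteins too. In 274 of 310 long gaps (88.4%) a stretch of at least 8000 bp was free of Rec8, and in 282 (91.0%) one was free of Hop1. In 257 (82.9%) such a stretch was free of both, and in the other 53 no free stretch reached 8000 bp. Of these 53, 37 held a whole peak of Rec8 or Hop1, and 16 lost sequence only to peaks that reached in from a border. The longest stretch without any of the 3 proteins measured 24909 bp and was the gap on chromosome XV from 135170 to 160296, less its edges.

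Chromosomes differed in how much long gap they carried. The 3 shortest chromosomes, I, III and VI, had 12 long gaps among 89 gaps (13.5%), and the other 13 had 298 among 1466 (20.3%). Singly, 8.70% of the gaps were long on I, 12.1% on VI and 18.2% on III. The other 13 ran from 13.8% on XIV to 27.3% on IV, so III lay within their range by this measure. Long gaps took up 16.6% of the span of I, III and VI together and 32.6% of the other 13, which made 1.45 long gaps per 100 kb on I, III and VI and 2.75 on the others. Chromosome I was lowest with 8.70% of its span, chromosome VI had 14.0% and chromosome III had 23.9%. The others ran from 23.8% on chromosome VIII to 40.7% on chromosome IV, which held 53 long gaps. By number, chromosome III had 1.82 long gaps per 100 kb, below each of the 13 longer chromosomes, of which XIV was lowest with 1.91.

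**Figure D5:**
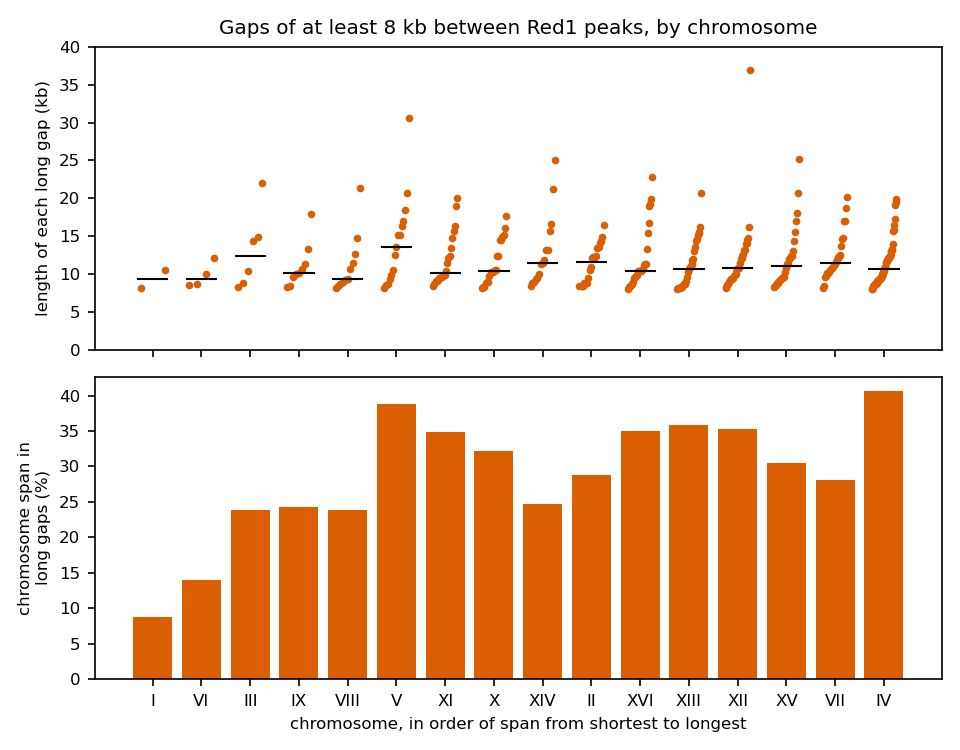
Length of each long gap (kb, top, with the median as a black line) and share of each chromosome span in long gaps (%, bottom), with chromosomes in order of span. Chromosomes I and VI had the lowest shares, 8.70% and 14.0%, and chromosome IV the highest, 40.7%.

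The 2 long gaps of chromosome I ran from 27614 to 38094 and from 45907 to 54085. The 4 of chromosome VI ran from 74471 to 83155, from 140267 to 150236, from 156603 to 165124 and from 199640 to 211743. None of these 6 held a whole peak of Rec8 or Hop1. Chromosome III had 6 long gaps, from 18917 to 27677, 109349 to 124172, 139392 to 153750, 160624 to 168937, 172827 to 194867 and 266836 to 277284. Of these, the second held Rec8 peaks of 1.79-fold and 1.21-fold, the third a Rec8 peak of 1.43-fold and the last Hop1 peaks of 1.13-fold and 1.27-fold. Chromosome VIII also had no whole peak of either protein inside its long gaps. By chromosome, Rec8 coverage of whole gaps was lower in long than in shorter gaps on 12 of 16, with III, V, VII and X as the exceptions. Hop1 coverage of whole gaps was lower on 16 of 16. These counts include the borders, where most of the coverage lay, and the gaps under 2000 bp. Pooled without the outer 1000 bp, Hop1 covered 0.826% of long and 0.967% of shorter gap sequence. Coverage without the borders was not compared by chromosome.

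The Red1 peaks standing between 2 long gaps were wider and stronger in the median than the other Red1 peaks. These peaks come from the list that chose the gaps, so the values are a description. The 68 Red1 peaks standing between 2 long gaps had a median width of 2118 bp and a median enrichment of 1.97-fold. The 478 with a long gap on 1 side had 1692 bp and 1.70-fold, and the 993 with none had 1655 bp and 1.57-fold. The first and last Red1 peak of each chromosome were left out of these counts. Peaks with a long gap on 1 side thus had nearly the median width of those with none, and their upper quartile was lower, 2557 against 2848 bp. The difference in median enrichment between peaks with 2 long gaps and peaks with none was 0.404, and it was 0.253 when only Red1 peaks that hold a summit were used. Narrow Red1 peaks of under 1000 bp made up 13.2% of the peaks between 2 long gaps, 29.9% of those with 1 and 32.2% of those with none.

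The wider surroundings of long and shorter gaps were much alike. Within 20 kb on either side, Red1 peaks covered a median of 30.4% around long gaps and 32.4% around shorter gaps. The neighbouring gap had a median length of 4171 bp beside long gaps and 3840 bp beside shorter gaps, and it was itself long in 22.1% of cases beside long gaps and 19.4% beside shorter gaps. Long gaps within 20 kb of the end of a span numbered 13 of 310 (4.19%), against 69 of 1245 shorter gaps (5.54%). The median distance to the end was 219009 bp for long gaps and 189477 bp for shorter gaps.

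Of the 310 long gaps, 187 stood alone and 123 (39.7%) were next to another long gap. Of the 1245 shorter gaps, 435 (34.9%) were next to a long gap, so the shares were close. The 123 long gaps formed 43 pairs, 11 runs of 3 and 1 run of 4. The run of 4 lay on chromosome XV from 327132 to 394772, and Red1 peaks covered 4.88% of its 67641 bp. Its gaps measured 14290, 11318, 18037 and 20697 bp, and the 3 Red1 peaks between them were 283, 1490 and 1526 bp wide with 1.29-fold to 1.86-fold enrichment. Each gap of this run held at least 1 Rec8 peak, with 1, 3, 2 and 1 in order along the chromosome, and only the first held a Hop1 peak.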

How the data were processed

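The peak lists of Red1, Hop1 and Rec8 at 3 h were used. The authors used Bowtie to place reads on the SK1 genome, with perfect matches only and 1 location per read, removed duplicates and called broad peaks with MACS2 2.1.1 on combined replicates, so that sequence without mapped reads can carry no peak. The deposited fold enrichment is a ratio over input averaged across each peak, the authors' −log10 q-value belongs to the whole peak, and the deposited summit list carries a score that was not interpreted further. Gaps, coverage and exact intervals (95%) were computed with Python 3.11.15, NumPy 2.4.6 and SciPy 1.17.1, and drawn with Matplotlib 3.10.9. An overlap was counted from 1 bp, and a peak was inside a gap when all of it was.

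The calculations recovered every gap, peak and base planted in 50 of 50 simulated lists. No test was run, since each protein has 1 list. The members and lists were chosen with earlier results of these data known. The 10 longest gaps, the 5 with the most Rec8 or Hop1, those of chromosomes I, III and VI, the 3 nearest the threshold on either side and the 5 highest peaks of either protein are named, and other features were picked after their values were seen. Of 13 other settings tried, 2 were added after seeing the data. The TPM table of the RNA-seq sample was not used, since it has no coordinates, and neither was the S288C reference, whose chromosomes III and VI end before some of the peaks. Of all samples, 3 with contradictory labels were left unassigned.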

Additional observations from a re-analysis of the deposited data

How the results depend on the processing

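Of 117 values from 9 results under 13 alternatives, 95 stayed within the interval of a share or within 1.5 times the reported value, 21 moved and 1 changed sign. The 95 include values that a setting could not alter. Examples are the number of long gaps and the coverage under another definition of an inside peak. The count of 95 is therefore no measure of how stable the results were. A minimum length of 6000 bp gave 513 gaps and Rec8 peaks inside 14.4% of them, and a minimum of 10000 bp gave 185 gaps and a Rec8 coverage difference of −1.55 percentage points (long minus shorter), against −2.41 as reported. With Red1 peaks that hold a summit only, Rec8 was inside 24.9% and Hop1 inside 22.6% of long gaps, the Rec8 coverage difference was −1.58 points and the difference in median Red1 fold enrichment, peaks between 2 long gaps minus peaks beside none, was 0.253, against 0.404 as reported. With Rec8 and Hop1 peaks of −log10 q-value 5 or more only, Rec8 was inside 12.6% and Hop1 inside 8.39%. Where 1 shared bp sufficed, the shares were 71.9% and 84.5%. Without the outer 1000 bp of each gap, coverage of long gaps was 2.57% for Rec8 and 0.826% for Hop1, and the differences were 0.363 points for Rec8, the only change of sign, and −0.140 points for Hop1. Against gaps of 4000 to under 8000 bp alone, they were −0.630 points for Rec8 and −0.919 points for Hop1. Without the gap richest in Rec8, an alternative chosen after seeing the data, Rec8 coverage was 3.97%. With that gap and the outer 1000 bp both left out, also chosen after seeing the data, coverage was 2.18% for Rec8 and 0.814% for Hop1 and the differences were −0.0244 and −0.153 points, so the change of sign for Rec8 rested on that gap. The cause of these changes was not tested. No paired analysis was possible because replicates were combined before peaks were called. Leaving out single replicates was not possible for the same reason, and the unknown depth limits what the lack of a peak can show.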

Other observations

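The stretches beyond the outermost Red1 peaks of a chromosome have no Red1 peak on their outer side and are not among the gaps. Of 32 such ends, 11 measured at least 8000 bp up to the last base in any list, and they added up to 146132 bp. Each of the 11 held at least 1 whole Rec8 peak, 19 in all, and 2 held a Hop1 peak. Rec8 covered 17.9% of these end stretches, against 4.34% of long gaps, and Hop1 covered 1.10%, against 2.29% of long gaps. The outer limit of each stretch is itself set by the outermost peak of any list, here a Rec8 or Hop1 peak. In the stretches without a whole Hop1 peak, a Rec8 peak at the outer limit was therefore fixed in advance. The Rec8 coverage of the end stretches includes these peaks, so it is not an even comparison with long gaps. The Hop1 comparison is not even either, since an end stretch borders Red1 on its inner side only. Peaks that straddled a border with Red1 gave 74.8% of the Hop1 coverage of long gaps. The longest end stretch was the start of chromosome XV, 26103 bp with 4 Rec8 peaks.

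Gaps of at least 8000 bp were also counted in the other lists. The Hop1 list had 330 among 1498 gaps, and the Rec8 list had 375 among 1576. Of the 310 long Red1 gaps, 288 (92.9%) were covered over at least 50% of their length by long Hop1 gaps, and 274 (88.4%) by long Rec8 gaps. In the other direction, 283 of the 330 long Hop1 gaps (85.8%) and 276 of the 375 long Rec8 gaps (73.6%) were covered in this way by long Red1 gaps, which left 99 long Rec8 gaps that were not. Long Red1 gaps took up 31.5% of the chromosome spans. They held 85.3% of the sequence of long Hop1 gaps and 72.8% of that of long Rec8 gaps. These shares follow in part from the low Hop1 and Rec8 coverage of long Red1 gaps given above, and none was computed for shorter Red1 gaps. The share of the spans in long Hop1 or long Rec8 gaps is not given, so 92.9% and 88.4% stand without a baseline. With the 3 lists joined, 267 gaps of at least 8000 bp remained.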
